A study of Mus musculus with 2 samples.

Results

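Clustered histone genes are the mouse histone genes that lie side by side in a few genomic clusters and whose names begin with Hist1h, Hist2h, Hist3h or Hist4h. The features of both libraries hold 69 such genes, and 62 of them, out of 27998 genes in all, had at least 20 unique molecular identifiers (UMIs, the counted captured RNA molecules) over both libraries. Their UMIs were followed across thymocyte-like cells, B lineage cells, other dividing cells and resting cells. The cells came from carotid arteries of male C57BL/6J mice, 8 weeks old in the series design, whose artery had been injured with a wire passed along the vessel and whose external carotid had been tied off, a model of intimal hyperplasia. One single-cell library was made 4 weeks (28 days) after the injury and 1 library 2 weeks (14 days) after it; both groups carry the injury, and no uninjured artery was analysed here. The design gives 18 mice per time, but each time is 1 library, so cells cannot be traced to an animal and no test between the times exists. The adventitia was dissected from the vessel, the tissue was digested with papain, and live cells that took up Hoechst dye were sorted; the labels differ on the side of the artery and also speak of aortic grafts.

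DNA is wound around cores of the histones H2A, H2B, H3 and H4, and the linker histone H1 sits where the DNA enters and leaves the core. A cell that copies its DNA needs new histones at once, and the clustered genes supply them during S phase. Their messenger RNAs are unusual because most end in a short hairpin, the histone stem-loop bound by Slbp, in place of a poly(A) tail, and are degraded when DNA synthesis stops. Some clustered genes also give poly(A)-tailed RNA in cells that no longer divide, and droplet libraries primed on poly(A) capture RNAs with a tail or with an internal run of A. A level here is therefore the share of captured molecules, not the total histone RNA of the cell, and levels of different members were not compared as abundances. In the thymus, immature T cells divide in bursts and then become small resting cells with an active antigen receptor locus.

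The 4-week library held 8565 barcodes and the 2-week library 5864, of which 7460 and 5172 passed the filters, with medians of 8728 and 11799 UMIs per cell; 8 barcodes occur in both libraries. Clustering without any clustered histone gene gave 30 clusters, of which clusters 0, 10, 11 and 21 (877 cells at 4 weeks, 1756 at 2 weeks) carried between 7 and 10 of 10 thymocyte markers, Rag1 and Rag2 among them in all but cluster 21. Fibroblast-like and macrophage-like cells, which belong to an arterial wall, were also found, and cluster 25 held cells with Pth, the parathyroid hormone gene. Cluster 1 was B cell-like (1171 cells at 4 weeks, 38 at 2 weeks). Cluster 14 (281 cells at 4 weeks, 5 at 2 weeks) met 9 of 9 B cell markers but stayed unnamed because its leading genes include Jchain, a plasma cell marker. Each cell was thinned to 2700 UMIs and called cycling with at least 4 UMIs of 51 S phase, mitosis and general cycling genes, resting with at most 1, and undecided between. Cycling cells were S-leaning, mixed or mitosis-leaning by the balance of S phase and mitosis genes. Thymocyte-like cells were cycling in 253 and resting in 155 cells at 4 weeks, and cycling in 807 and resting in 328 cells at 2 weeks. Near the limits, 131 of 520 scored thymocytes at 4 weeks and 375 of 1436 at 2 weeks had 2 to 4 such UMIs. The scoring rule that named clusters was set after the clusters were seen.

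The Hist1 cluster on chromosome 13 held 49 members and 257073 of the member UMIs. Hist2 on chromosome 3 held 10 members with 10465 UMIs, Hist3 on chromosome 11 held 2 with 10210, and Hist4 on chromosome 6 held 1 with 539. Totals of each member over all barcodes of both libraries follow, by the protein made. The 5 members for the linker histone H1 took 22.6% of member UMIs. Hist1h1b led them with 30507 UMIs, followed by Hist1h1e with 12820, Hist1h1c with 11268, Hist1h1a with 5217 and Hist1h1d with 3023. The 16 members for H2A took the largest share, 43.4%, and most of it came from Hist1h2ap (49532 UMIs) and Hist1h2ae (38365). The other H2A members were Hist1h2ab (9497), Hist3h2a (5929), Hist1h2an (5891), Hist2h2ac (5159), Hist1h2ak (1356), Hist1h2af (1213), Hist2h2aa1 (1197), Hist1h2ac (976), Hist1h2ag (902), Hist1h2ai (572), Hist1h2ad (120), Hist2h2ab (94), Hist1h2ao (54) and Hist1h2ah (47). The 16 members for H2B took 14.4% of member UMIs. Hist1h2bc had 20281 UMIs, Hist3h2ba 4281, Hist1h2bj 2977, Hist1h2be 2743, Hist1h2bn 2055, Hist2h2bb 1980, Hist1h2bb 1285, Hist1h2bm 1131, Hist1h2bg 608, Hist1h2bf 597, Hist1h2bh 564, Hist1h2bk 502, Hist2h2be 413, Hist1h2bp 319 and Hist1h2bl 307. A further identifier under the symbol Hist2h2bb, annotated as a long noncoding RNA, had 76 and is counted among the H2B members only by its symbol. The 12 members for H3 took 11.2%, led by Hist1h3c with 17772 UMIs. Hist1h3e had 3783, Hist1h3i 2564, Hist1h3f 2427, Hist1h3a 1601, Hist1h3b 1336, Hist2h3c1 391, Hist2h3c2 373, Hist2h3b 324, Hist1h3g 285, Hist1h3d 279 and Hist1h3h 142. The 13 members for H4 took 8.32%, led by Hist1h4d with 13434 UMIs. Hist1h4i had 3075, Hist1h4h 2569, Hist1h4c 1503, Hist1h4a 647, Hist4h4 539, Hist2h4 458, Hist1h4b 282, Hist1h4k 158, Hist1h4f 140, Hist1h4j 134, Hist1h4n 124 and Hist1h4m 89. The genes that missed the minimum were Hist1h2al (15), Hist1h1t (7), Hist2h2aa2 (6), Hist1h2ba (1), Hist1h2bq (1), Hist1h2aa (0) and Hist1h2br (0); Hist1h1t, Hist1h2aa and Hist1h2ba are known as testis histones. In the annotation (GRCm38, GENCODE), all of the following are protein-coding genes. The named Hist1 genes lie at chr13:21833026-21833507 (Hist1h2ap, minus strand), chr13:23570517-23571220 (Hist1h2ae, minus), chr13:21779883-21780625 (Hist1h1b, minus), chr13:23744973-23745602 (Hist1h3c, minus), chr13:23581598-23582735 (Hist1h4d, plus), chr13:23620629-23622558 (Hist1h1e, minus), chr13:23738808-23740367 (Hist1h1c, plus) and chr13:23684199-23692908 (Hist1h2bc, plus). Hist3h2ba lies at chr11:58948920-58949533 and Hist3h2a at chr11:58954685-58956830, both on the plus strand. Hist2h2ac lies at chr3:96220361-96220880 (minus) and Hist2h2be at chr3:96221119-96223738 (plus). Reads of near-identical copies are hard to tell apart, and how they were assigned was not checked. The total of Hist1h2ap is uncertain for this reason: 0% of the 91-base words in the last 300 bases of its transcript are its own. Hist1h1e and Hist1h2be overlap on 1 strand, and Hist3h2a overlaps Trim17, so reads of these genes could also be assigned to their partners.

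The stem-loop that closes a replication-dependent histone mRNA was found in the annotated transcripts (GRCm38, GENCODE) of 42 of the 62 members, 21 to 58 bases after the stop codon (median 31.5). It is shown here for the members that carry the contrast between dividing and resting cells, with the 16-base hairpin in capitals and up to 5 flanking bases on each side.
Hist1h2ap: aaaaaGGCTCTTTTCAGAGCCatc
Hist1h2ae: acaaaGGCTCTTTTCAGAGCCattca
Hist1h3c: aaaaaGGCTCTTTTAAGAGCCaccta
Hist1h4d: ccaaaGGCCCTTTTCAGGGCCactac
Hist2h2ac: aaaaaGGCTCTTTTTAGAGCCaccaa
Hist1h1c: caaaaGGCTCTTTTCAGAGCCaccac
Hist3h2a: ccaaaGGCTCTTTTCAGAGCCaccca
Hist3h2ba: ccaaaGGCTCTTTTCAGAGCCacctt
As a share of captured molecules, the first 5 of these genes were much higher in cycling thymocytes, and the last 3 were not. In UMIs per cell, Hist1h1c and Hist3h2a were also higher in cycling thymocytes and Hist3h2ba was not lower, as given below. Hist1h2ap, Hist1h2ae, Hist1h1c, Hist3h2a and Hist3h2ba share the same 16 bases. That hairpin was the most frequent, with 23 members from H1, H2A, H2B and H3, and no H4 member had it; 7 H4 members shared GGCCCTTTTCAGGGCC, the hairpin of Hist1h4d.

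Member RNA was concentrated in dividing thymocyte-like cells. Cycling thymocytes held 9366 CPM (UMIs of a gene or set scaled to 1000000 UMIs of all genes) for the 62 members together at 4 weeks and 9290 at 2 weeks, against 1402 and 1740 CPM in resting thymocytes of the 4-week and 2-week libraries. The log2 ratio was 2.74 at 4 weeks (95% interval from counting error 2.64 to 2.84) and 2.42 at 2 weeks (2.36 to 2.47). Cycling cells were also larger libraries, with 16390 and 18686 UMIs per cell at 4 and 2 weeks against 3879 and 4390 in resting thymocytes, so the ratio per cell was 4.82 and 4.51. Clusters 10 and 11 held most of the cycling thymocytes (44.3% and 41.1% at 4 weeks, 38.7% and 45.4% at 2 weeks), while cluster 0 held 87.7% and 85.7% of the resting ones. At an equal 2700 UMIs per cell, the median resting thymocyte had 3 member UMIs at 4 weeks and 4 at 2 weeks. The median S-leaning thymocyte had 6 and 9, the mixed one 28 and 32, and the mitosis-leaning one 28 and 29. S-leaning cells were spread widely, with quartiles of 3 and 31 at 4 weeks and of 4 and 26.25 at 2 weeks, so that many of them were as low as resting cells.

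**Figure D1:**
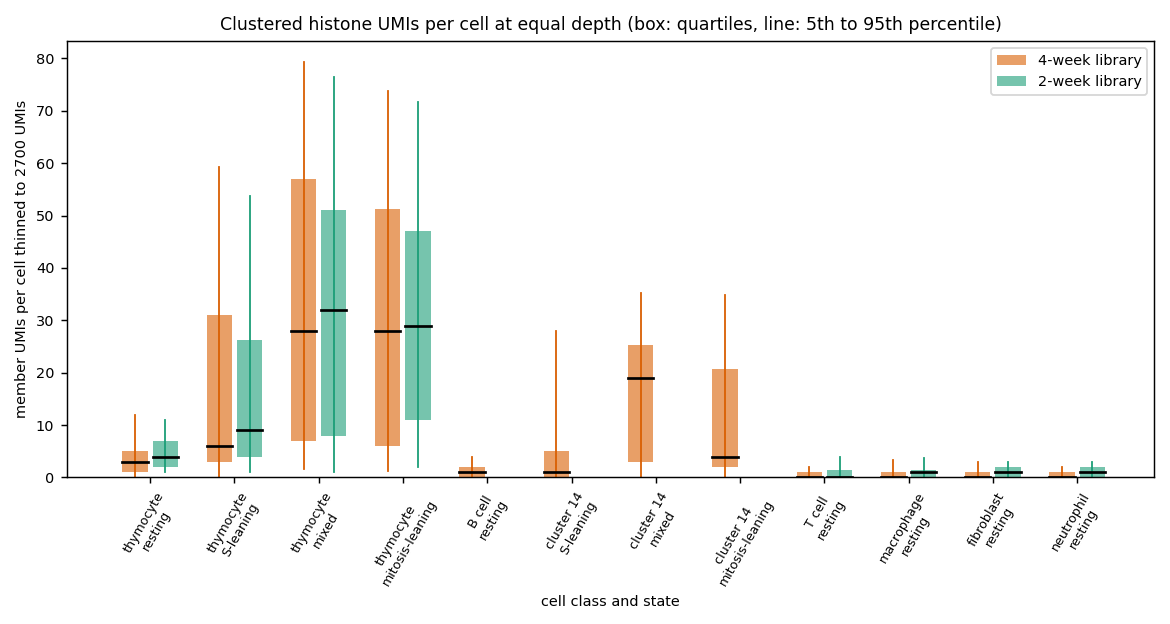
UMIs of the 62 clustered histone genes per cell thinned to 2700 UMIs (y) in each cell class and state (x), in the 4-week (orange) and 2-week (green) libraries; boxes span the quartiles, black lines mark medians and thin lines run from the 5th to the 95th percentile. Mixed and mitosis-leaning thymocytes reach medians of 28 to 32, whereas resting T cells, macrophages, fibroblasts and neutrophils lie at 0 or 1.

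The ratio of each member was set apart by size in both libraries. With a log2 CPM ratio, cycling over resting, of at least 2 in both, 27 members were called replication-linked. The name marks cycling cells of every phase, not S phase alone. S-leaning thymocytes held a lower member sum than mixed or mitosis-leaning ones. Of all 10560 genes with enough UMIs, 3.11% reached that size, and 47 members had enough UMIs. Among these 27 the ratio ran from 2.05 to 7.02 at 4 weeks (median 3.29) and from 2.00 to 6.40 at 2 weeks (median 3.13). For Hist1h3b, Hist1h2bb, Hist1h2af, Hist1h2ag and Hist1h2bf the 4-week ratio is a lower bound, taken against 3 counts, because resting cells had 0 UMIs. The 27 comprised 10 H2A, 8 H2B, 5 H3, 2 H1 and 2 H4 genes, from the Hist1 and Hist2 clusters. Another 15 members had ratios above 0 in both libraries that fell under that size in at least 1. Just inside lay Hist1h4i (2.45 at 4 weeks, 2.00 at 2 weeks) and Hist1h3e (2.05 and 2.39), and just outside lay Hist1h2be (2.39 and 1.92). A further 15 could not be placed, since they had 0 UMIs in the resting cells of at least 1 library and their bound did not reach the size.

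Hist1h3c, an H3 gene, was nearly confined to dividing cells. It had 2689 UMIs in cycling and 3 in resting thymocytes at 4 weeks, and 11445 in cycling and 13 in resting thymocytes at 2 weeks. Its CPM was 648 and 759 in cycling thymocytes of the 4-week and 2-week libraries, against 4.99 and 9.03 in resting ones, log2 ratios of 7.02 (5.47 to 9.30) and 6.39 (5.62 to 7.30). The H2A gene Hist1h2ap had 2087 and 1914 CPM in cycling thymocytes at 4 and 2 weeks, against 196 and 195 CPM in resting ones, ratios of 3.41 and 3.29. Hist1h2ae, also H2A, had 1642 and 1491 CPM in cycling thymocytes, against 143 and 133 CPM in resting ones, ratios of 3.52 and 3.48. Both H2A genes thus had much the same level in the 2 libraries within each state, and both were far apart between the states. The linker gene Hist1h1b had 1196 and 1156 CPM in cycling thymocytes, against 94.8 and 133 CPM in resting ones (3.66 and 3.12). The H4 gene Hist1h4d had 506 and 486 CPM in cycling thymocytes, against 51.6 and 55.6 CPM in resting ones (3.29 and 3.13). The linker gene Hist1h1e rose less, with 345 and 382 CPM in cycling thymocytes against 94.8 and 153 CPM in resting ones (1.86 and 1.32).

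The edgeR quasi-likelihood test on the sums per library and state, with the library as a block, tested 9731 genes, and its Benjamini-Hochberg adjusted p was under 0.05 for 31.2% of them as higher and 27.8% as lower in cycling thymocytes. By DESeq2 65.0% of all calls were higher, against 52.9% by edgeR, and with UMIs per cell 99.1% were, since the median of all genes then moved by 1.73. Of the 62 members, 55 passed the filter on low counts, 50 of them were higher, 2 were lower and 3 were not called. The median fitted log2 fold change was 2.93 over those members and 0.00 over all tested genes, on a scale normalized so that the median gene does not move; it lies about 0.35 above the plain CPM ratio. A member that passed the filter through its cycling cells alone had to be higher, and Hist1h4j, Hist1h4k, Hist1h3h, Hist1h4b and Hist1h3g had no resting UMI in either library. Others among the 50 had very few resting UMIs. Hist1h3b, Hist1h2bk and Hist1h3d had 0 at 4 weeks and 1 at 2 weeks, Hist1h2bb 0 and 2, Hist1h2af 0 and 3, and Hist1h4f 1 and 1. No count without such members was made, so part of the 50 follows from the filter. Hist2h3c1, Hist2h3c2, Hist2h2ab, Hist1h4m, Hist1h2ao, Hist1h2ah and the noncoding Hist2h2bb identifier had too few UMIs for the test. The model has 1 residual degree of freedom, so its spread is borrowed across genes. Hist1h4d was higher by 3.53 (SE 0.12, edgeR adjusted p = 7.47e-183) and Hist1h1e by 1.84 (SE 0.11, edgeR adjusted p = 7.88e-66). Hist2h2bb, an H2B gene, was higher by 3.72 (SE 0.26, edgeR adjusted p = 4.56e-44). Not called were Hist2h2be (-0.43, edgeR adjusted p = 0.366), Hist4h4 (0.85, edgeR adjusted p = 0.278) and Hist1h4n (1.29, edgeR adjusted p = 0.104).

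**Figure D2:**
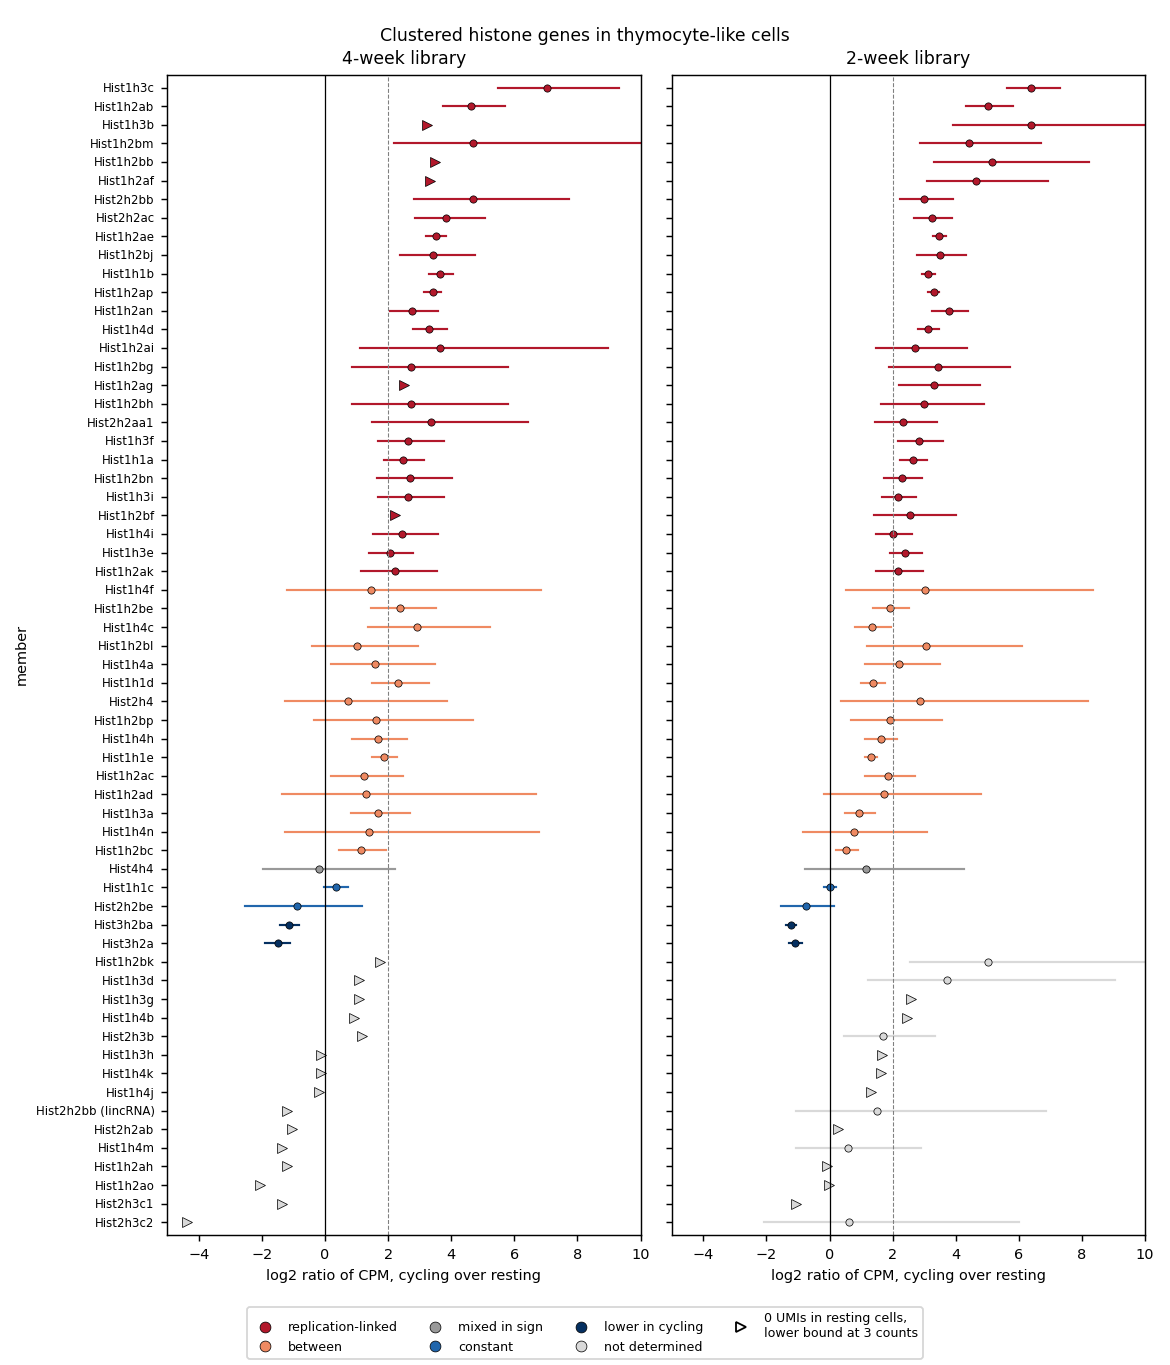
Log2 ratio of CPM in cycling over resting thymocyte-like cells (x) for each of the 62 members (y) in the 4-week (left) and 2-week (right) libraries; bars are 95% intervals from counting error and triangles are lower bounds where resting cells had 0 UMIs. The 27 replication-linked members lie right of the dashed line at 2 in both panels, while Hist3h2ba and Hist3h2a lie below 0 on this CPM scale in both (Hist3h2a lies above 0 per cell).

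A small set did not follow the division state on the CPM scale. There, 2 members stayed within 1 log2 unit in both libraries (50.7% of all genes did) and 2 were below -1 in both (17.7% of all genes). Hist1h1c, a linker histone gene, had 139 and 166 CPM in cycling thymocytes at 4 and 2 weeks, against 110 and 164 CPM in resting ones (0.34 and 0.02), though per cell its log2 ratio was 2.42 and 2.11. On the normalized scale of edgeR it was higher by 0.47 (SE 0.12, edgeR adjusted p = 1.98e-04). Hist2h2be, an H2B gene known from mouse olfactory neurons, had only 15 and 93 UMIs in cycling and 4 and 15 in resting thymocytes (-0.88 and -0.76), and per cell edgeR gave 1.30 (adjusted p = 4.28e-04). Hist3h2a, an H2A gene, had 45.3 and 75.8 CPM in cycling thymocytes, against 128 and 162 CPM in resting ones. Its log2 ratio was -1.50 (-1.89 to -1.10) at 4 weeks and -1.09 (-1.30 to -0.88) at 2 weeks, and edgeR gave -0.87 (SE 0.13, edgeR adjusted p = 3.28e-10). In UMIs per cell rather than CPM, Hist3h2a was higher in cycling cells, by 0.58 and 1.00. Hist3h2ba, the H2B gene beside it, had 90.4 and 114 CPM in cycling thymocytes, against 198 and 267 CPM in resting ones. Its ratios were -1.13 and -1.22, and edgeR gave -0.84 (SE 0.11, edgeR adjusted p = 5.82e-13); it too was not lower per cell, where edgeR called no member lower. These 4 members made up 2.97% and 3.90% of member UMIs in cycling thymocytes at 4 and 2 weeks, against 31.6% and 34.7% in resting ones. Hist4h4 changed sign between the libraries (-0.20 at 4 weeks, 1.17 at 2 weeks) on at most 3 resting UMIs in each.

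Along the cycle, the members differed in where they were highest. The member sum at 4 weeks was 1402 CPM in resting, 7325 in S-leaning, 10535 in mixed and 10498 in mitosis-leaning thymocytes. At 2 weeks it was 1740, 7076, 10885 and 10196 CPM in the same order of states. Hist1h1b was highest in mixed cells: 94.8, 1139, 1342 and 1110 CPM in resting, S-leaning, mixed and mitosis-leaning thymocytes at 4 weeks, and 133, 1060, 1432 and 1017 CPM at 2 weeks. Hist1h3c was highest in mitosis-leaning cells, with 4.99, 411, 699 and 869 CPM along the same states at 4 weeks and 9.03, 462, 893 and 948 CPM at 2 weeks. Hist3h2a took the opposite course at the start of the cycle, at 128, 14.0, 50.2 and 76.3 CPM along the states at 4 weeks and 162, 53.5, 63.8 and 109 CPM at 2 weeks. Hist3h2ba did likewise, at 198, 35.4, 89.4 and 155 CPM at 4 weeks and 267, 61.3, 97.3 and 184 CPM at 2 weeks. For both Hist3 genes the S-leaning cells were lowest and the mitosis-leaning cells lay between them and the resting cells in both libraries. The share of cells with a Hist3h2a UMI at 2700 UMIs gave the same low point: 32.3%, 4.17% and 11.9% of resting, S-leaning and mitosis-leaning thymocytes at 4 weeks, and 34.8%, 18.8% and 24.8% at 2 weeks, where resting neutrophils had 0 of 21 cells and 2.78%. Hist1h2bc, an H2B gene, had 28.3, 52.2, 51.7 and 84.8 CPM along the 4 states at 4 weeks and 51.4, 40.8, 58.2 and 122 CPM at 2 weeks, so its highest level lay in mitosis-leaning cells.

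**Figure D3:**
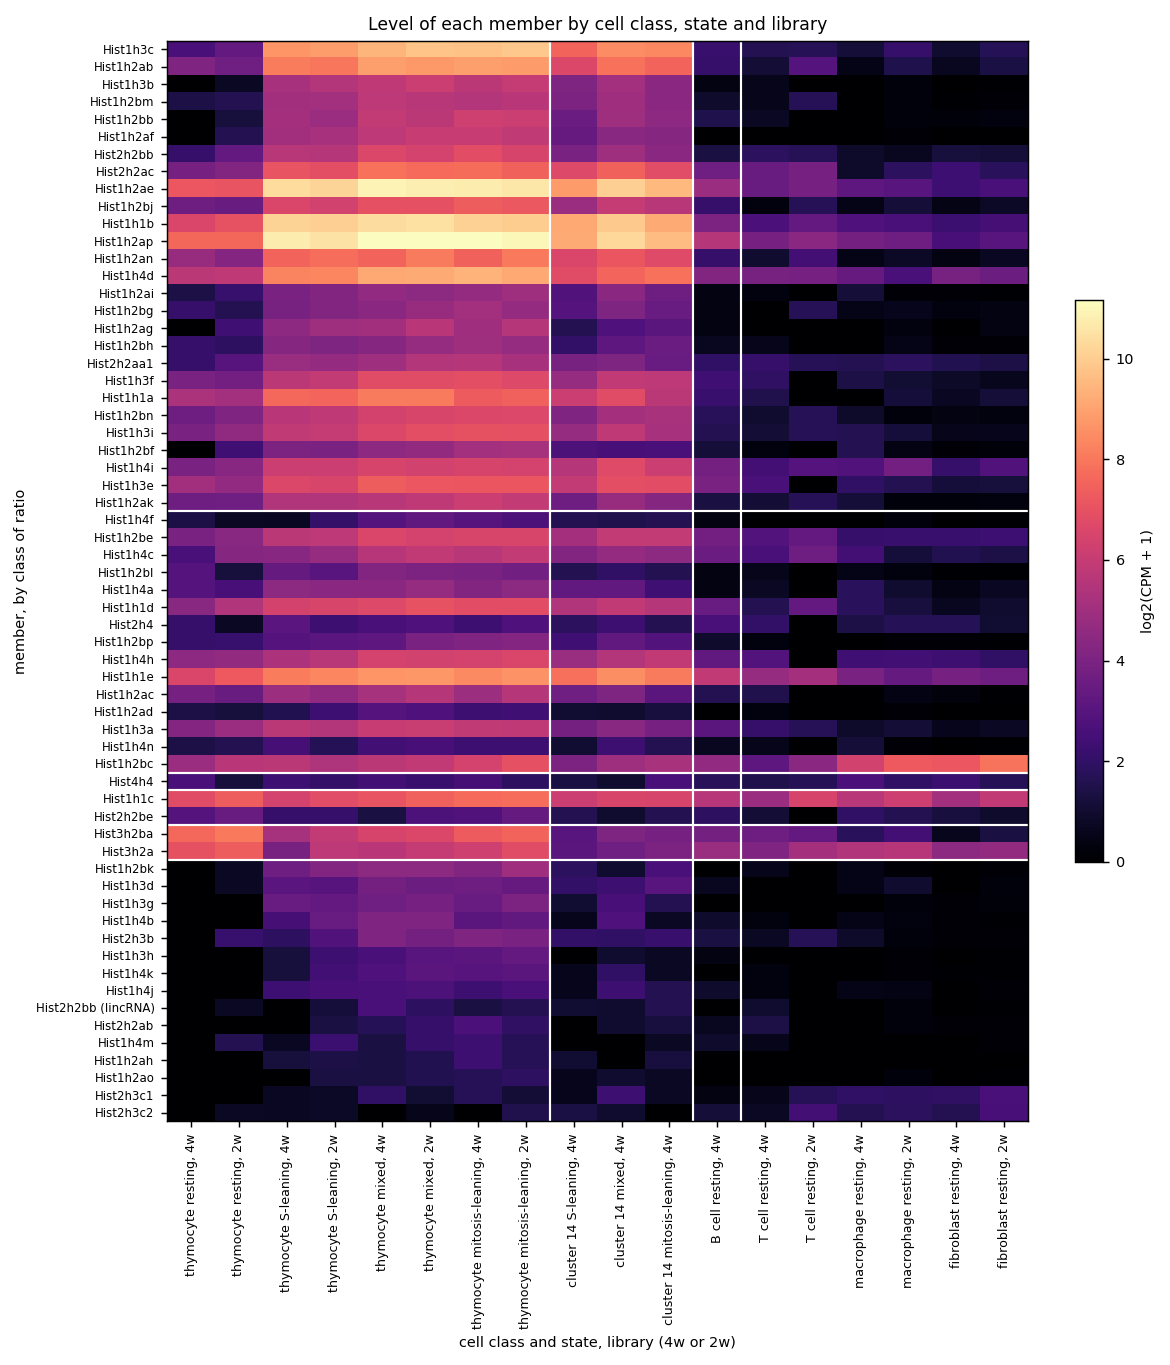
Level of each member (down the page, ordered by class of ratio) as log2(CPM + 1), from black (0) to pale yellow (highest), in cell classes and states of the 4-week and 2-week libraries (columns). The upper block of replication-linked genes is bright in all cycling columns of thymocytes and, less so, of cluster 14, while Hist1h2bc is brightest in resting fibroblasts, and Hist3h2ba and Hist3h2a are brightest in resting thymocytes.

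Resting thymocytes still held more member RNA than other resting cells. Their 1402 and 1740 CPM at 4 and 2 weeks stood against 214 and 337 CPM in resting T cell-like, 290 and 379 in macrophage-like, 280 and 416 in fibroblast-like and 214 and 379 CPM in neutrophil-like cells. Neutrophils are set beside them because their resting cells had a similar depth. Their medians were 3765 and 3437 UMIs, against 3317 and 3836.5 UMIs in resting thymocytes. Neutrophils do not divide, though 5 neutrophil-like cells at 2 weeks were called cycling. At equal depth, a Hist1h2ap UMI was found in 32.3% and 36.0% of resting thymocytes (37.4% and 46.3% before thinning), against 9.52% (2 of 21) and 9.26% (10 of 108) of resting neutrophils. For Hist1h3c the shares were 0.645% and 3.05% of resting thymocytes, against 0 of 21 (which allows up to 16.1%, exact binomial) and 5.56% of neutrophils. The make-up also differed between the states: Hist1h3c made up 2.48% (exact 95% interval 0.51 to 7.07) and 4.42% (2.38 to 7.44) of the UMIs of Hist1h3c and Hist1h2ap in resting thymocytes, against 23.7% and 28.4% in cycling ones. In resting fibroblasts this share was 17.0% and 23.3%, in macrophages 8.82% and 22.7%, and in T cells 13.6% and 10.0%. It was 7.14% in resting B cells at 4 weeks and 31.8% (13.9 to 54.9) in resting neutrophils at 2 weeks. The part of free RNA in the level of resting thymocytes was not tested.

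In the B lineage, cluster 14 of the 4-week library held cells that the grouping had not used, and the grouping was described there. Its 203 cycling cells held 4173 CPM of the members, against 428 CPM in the 645 resting B cell-like cells. By state, the sum was 3099 CPM in S-leaning, 5939 in mixed and 4368 in mitosis-leaning cells. All 27 replication-linked members had a log2 CPM ratio of at least 2 there, from 2.13 to 6.25 with a median of 4.01. For Hist1h2af it is a lower bound, on 65 UMIs in cycling and 0 in resting cells. Over all members with enough UMIs, 34 of 42 reached that size, where 6.97% of 9709 genes did. The minimum counted both states together, so a member that passed it through cycling cells alone had to be higher. Hist1h3b had 93 UMIs in cycling and 1 in resting cells, Hist1h2ai 49 and 1, and Hist1h2bg 43 and 1. Hist1h4a had 32 and 1, and Hist1h2ag 21 and 1. No count without such members was made. Hist1h3c again had the highest ratio of the named members, with 274 CPM in cycling cells of cluster 14 against 3.60 CPM in resting B cells, a ratio of 6.25 (5.44 to 7.21). Hist1h1b had 668 against 15.3 CPM (5.45), and Hist1h2ap 799 against 46.8 CPM (4.09). Of the 6 members within 1 log2 unit (65.1% of genes), Hist1h1c stood at 81.1 against 48.3 CPM (0.75) and Hist3h2ba at 11.3 against 12.9 CPM (-0.20). Hist3h2a was the 1 member below -1 (17.4% of genes), with 11.3 CPM in cycling cells against 27.0 CPM in resting ones (-1.26, -1.79 to -0.74). The 2 cell sets belong to different clusters, which cannot be told apart from their division state, and 1 library gives no test.

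The 73 cells of the B cell-like cluster 1 that were called cycling had about the member level of resting ones. They held 437 CPM, against 428 CPM in resting B cells, a log2 ratio of 0.03 (-0.21 to 0.26). With a cycling minimum of 6 UMIs the ratio was 0.31. With doublets kept, where all cells were clustered and named anew, it was 3.22, over 289 cycling cells under the B cell-like name. The part in this of the 203 cycling cells of cluster 14 was not tested. Mki67, a marker gene of dividing cells, had 38.1 CPM in the 73 cells against 5.10 CPM in resting B cells, and Pcna, the clamp of the replication fork, 160 against 42.9 CPM. Cycling cells of cluster 14 had 881 CPM of Mki67 and cycling thymocytes 848 CPM at 4 weeks.

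At the same time point, each of the 55 members with enough UMIs had a higher CPM in cycling thymocytes than in cycling cells of cluster 14. Of these 55, 41 were higher by at least 1 log2 unit and 0 lower, where 16.4% of all genes were higher and 11.6% lower by that size. The median log2 ratio was 1.37 over these members and 0.16 over all genes. Within states the counts were 28 of 40 members higher in S-leaning (14.3% of genes), 22 of 46 in mixed (15.6%) and 35 of 44 in mitosis-leaning cells (16.5%), where 12.2%, 9.97% and 11.1% of genes were lower by that size. Hist1h2ap had 2087 CPM in cycling thymocytes against 799 in cluster 14 (1.39, 1.33 to 1.44), and Hist1h3c had 648 against 274 CPM. Mki67 was similar, at 848 CPM in cycling thymocytes and 881 CPM in cluster 14, while Pcna was higher in cycling thymocytes, at 460 CPM against 275 CPM; the part of S phase in the gap was not tested. The largest gap among the named members was in Hist3h2ba, with 90.4 CPM in cycling thymocytes against 11.3 CPM in cluster 14 (3.01). The smallest gaps were those of Hist1h4i (0.27) and the linker gene Hist1h1e (0.33), which took part in a shift of the make-up: H1 genes gave 21.2% of member UMIs in cycling thymocytes and 27.4% in cycling cells of cluster 14, and H2A genes 51.1% and 47.0%. H3 genes gave 11.8% and 11.9% and H4 genes 8.04% and 7.67%, so these families kept nearly the same share in both lineages.

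**Figure D4:**
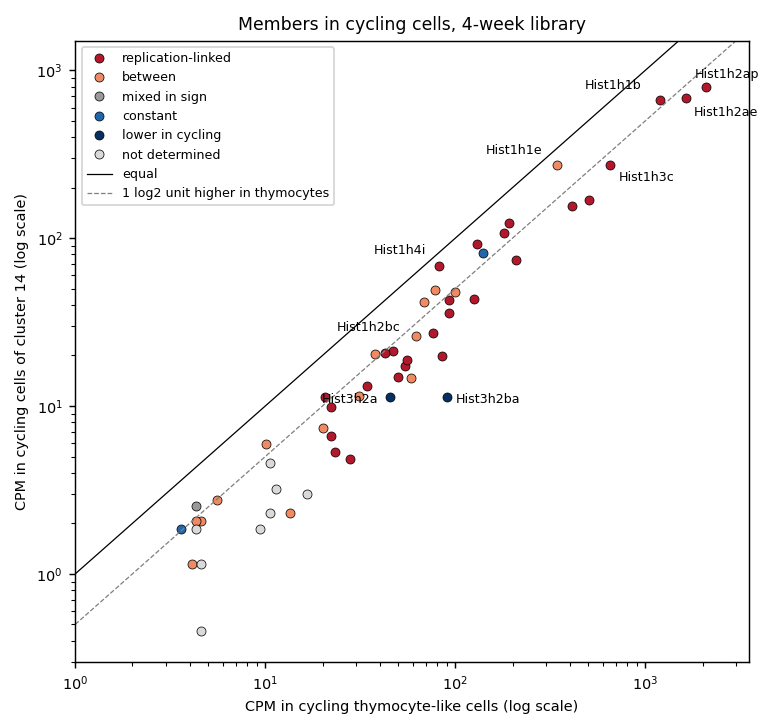
CPM of each of the 55 members with at least 20 UMIs in cycling thymocyte-like cells (x, log scale) and in cycling cells of cluster 14 (y, log scale) of the 4-week library; the solid line marks equal levels and the dashed line a level 1 log2 unit higher in thymocytes. All 55 points lie below the solid line and 41 lie below the dashed one, and Hist3h2ba is the named gene farthest from both.

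Cycling cells of the other classes, all but the thymocyte-like cells, the B cell-like cells and cluster 14, were few. They numbered 131 at 4 weeks and 124 at 2 weeks, with 61 and 11 among T cell-like, 8 and 41 among macrophage-like and 23 and 8 among fibroblast-like cells, which is too few in 1 library of each class for the planned test. Over all other classes, the members held 591 and 1139 CPM in cycling cells at 4 and 2 weeks, against 281 and 398 CPM in resting cells, log2 ratios of 1.07 (0.97 to 1.18) and 1.52 (1.45 to 1.58). The size of these ratios moved with the settings, to 2.75 and 2.82 with doublets kept, to 0.47 and 0.90 with a cycling minimum of 3 UMIs and to 1.97 and 2.17 with a minimum of 6. Their Mki67 was 124 and 268 CPM, well under that of cycling thymocytes (848 and 965 CPM). Hist1h2ap had 103 and 185 CPM in these cycling cells, against 7.41 and 10.2 CPM in resting ones (3.80 and 4.17). Hist1h3c had 23.9 and 54.7 CPM in cycling cells, against 1.18 and 2.84 CPM in resting ones (4.34 and 4.27). Pooled over the classes, the ratio of Hist1h2ap lay above that in thymocytes (3.41 and 3.29), while that of Hist1h3c was smaller than there (7.02 and 6.39). By class, the ratio of Hist1h2ap was 2.00 (1.25 to 2.71) in T cells at 4 weeks and 2.23 (1.63 to 2.78) in macrophages at 2 weeks. In fibroblasts at 4 weeks it was 4.76 (4.28 to 5.22), on 51 UMIs in cycling cells. Of these the 21 S-leaning cells held 1 and the 2 mixed cells the rest. Hist1h2bc went the other way, with 56.3 and 106 CPM in cycling cells of the other classes against 123 and 194 CPM in resting ones (-1.13 and -0.87). Within single classes its ratio was -0.54 (-1.04 to -0.085) in fibroblasts at 4 weeks, -0.48 (-0.86 to -0.12) in macrophages at 2 weeks and 0.93 (-0.49 to 2.12) in T cells at 4 weeks. The cycling and resting cells here are different mixtures of classes, and their part in these ratios was not tested. Few cells carried much of the pooled level in cycling cells. Of its 840 member UMIs at 4 weeks, 2 mixed fibroblasts held 111. Another 192 lay in 4 mixed cells outside the T cell, macrophage, fibroblast and neutrophil classes. At 2 weeks 1 mixed fibroblast held 335 of 2165.

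Resting cell types differed in their leading histone gene, meaning the most captured one. Hist1h2bc, which makes H2B, led in resting fibroblasts, macrophages and neutrophils. In fibroblasts it stood at 144 and 243 CPM at 4 and 2 weeks, or 51.2% and 58.5% of their member UMIs. It gave 27.8% and 40.0% of member UMIs in resting macrophages (80.7 and 151 CPM), with Hist1h1c at 17.1% and 19.5% and Hist3h2a at 15.1% and 12.5%. A Hist1h2bc UMI was found in 28.1% and 39.8% of resting fibroblasts at equal depth, against 19.0% and 19.4% of resting neutrophils and 7.10% and 12.2% of resting thymocytes. Resting T cells were led by Hist1h1c, with 27.8 and 88.1 CPM, and at 4 weeks Hist1h1e lay close behind it at 25.7 CPM. Resting B cells at 4 weeks were led by the linker genes Hist1h1e (14.0%) and Hist1h1c (11.3%), followed by Hist1h2ap (10.9%). Resting thymocytes were led by Hist3h2ba, with 198 and 267 CPM, whereas resting fibroblasts had 0.545 and 1.53 CPM and resting macrophages 2.51 and 4.47 CPM of that gene. At 4 weeks the lead of Hist3h2ba in resting thymocytes was narrow, with 119 UMIs against 118 of Hist1h2ap. Over the resting cells of all classes together, the most captured members, as means of both libraries, were Hist1h2bc (152 CPM), Hist1h1c (51.9), Hist3h2a (30.3), Hist1h1e (18.5), Hist1h2ap (14.4) and Hist1h4d (13.4).

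**Figure D5:**
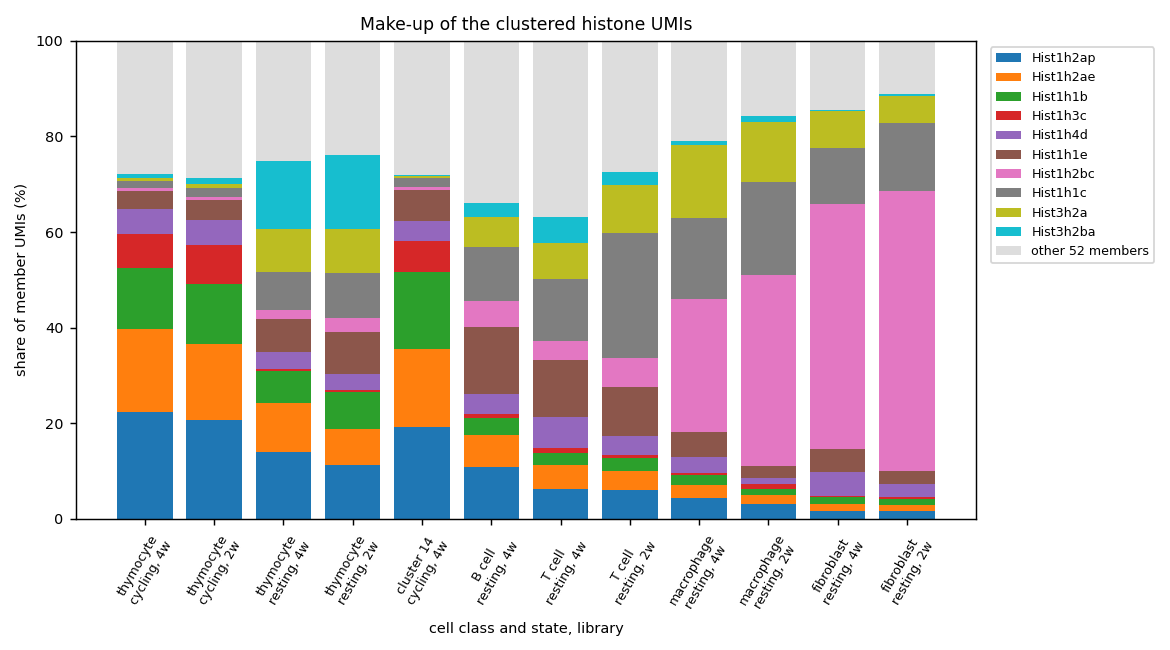
Share of the member UMIs (y, percent) given by 10 named members and by the other 52, in 12 sets of cells given by class, state and library (x). Hist1h2ap, Hist1h2ae, Hist1h1b and Hist1h3c fill most of the 3 cycling bars, those of thymocytes and cluster 14, Hist3h2ba and Hist3h2a are visible in resting thymocytes, and Hist1h2bc fills 51.2% and 58.5% of the resting fibroblast bars.

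Between the times the cycling thymocytes differed little. The member sum in S-leaning thymocytes was 7325 CPM at 4 weeks and 7076 at 2 weeks (log2 ratio 0.05, 0.02 to 0.08, from counting error alone), and the sign of so small a difference turned under other settings. In cycling thymocytes 0 of 61 members differed by at least 1 log2 unit in either direction (1.49% of genes were higher and 2.83% lower at 4 weeks). In S-leaning cells 0 of 54 were higher (1.47% of genes) and 7 were lower at 4 weeks (3.56%). The firmest of these was Hist3h2a, at 14.0 CPM at 4 weeks against 53.5 at 2 weeks (-1.93, -2.64 to -1.29). Of the members with at least 50 UMIs in cycling thymocytes, the highest 4-week over 2-week ratios were those of Hist4h4 (0.48, -0.39 to 1.29), Hist1h4n (0.28, -0.58 to 1.07) and Hist2h2bb (0.24, 0.07 to 0.42). The lowest were those of Hist2h2be (-0.77, -1.66 to 0.03), Hist3h2a (-0.74, -0.97 to -0.52) and Hist1h4m (-0.69, -1.98 to 0.40).

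Cycling cells of the other classes differed more. Their member sum was 591 CPM at 4 weeks and 1139 CPM at 2 weeks (-0.95, -1.06 to -0.83), and in the S-leaning ones 342 and 1083 CPM (-1.66, -1.83 to -1.50). Their Mki67 was also lower at 4 weeks, at 124 CPM against 268 CPM at 2 weeks, and the mix of classes differed. The part of either was not tested. As given above, a few mixed cells held many of the cycling member UMIs.

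Resting cells of all classes together had a lower summed CPM of the members at 4 weeks, at 304 against 442 CPM. Resting B cell-like cells went the other way, with 428 CPM (406 to 451) at 4 weeks. Their 15 cells at 2 weeks had 309 CPM (208 to 441). The log2 ratio of the sum was -0.31 (-0.43 to -0.20) in resting thymocytes, -0.38 (-0.50 to -0.27) in macrophages and -0.57 (-0.61 to -0.53) in fibroblasts. The median ratio of members with enough UMIs was -0.36, -0.04 and -0.32 in the same order. In fibroblasts and macrophages much of the difference lay in Hist1h2bc and Hist1h1c. They stood at 144 and 33.2 CPM in fibroblasts at 4 weeks, against 243 and 58.9 CPM at 2 weeks. In macrophages they stood at 80.7 and 49.7 CPM, against 151 and 73.8 CPM. Hist1h4d and Hist1h1e had a higher CPM at 4 weeks in both classes. In resting thymocytes 0 of 26 members were higher and 2 lower by 1 log2 unit (1.56% and 3.66% of genes), in macrophages 1 and 4 of 25 (3.45% and 4.15%) and in fibroblasts 1 and 6 of 32 (2.22% and 4.91%). The 1 higher member in fibroblasts was the H4 gene Hist2h4 (2.24 against 1.04 CPM, 1.11) and in macrophages the H4 gene Hist1h4c (4.60 against 1.32 CPM, 1.80), both chosen after their values were seen. Over the whole library, members took 1104 CPM at 4 weeks and 2359 at 2 weeks, and cycling thymocytes numbered 253 and 807, and the part of free RNA in the lower resting level at 4 weeks was not tested.

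The annotated ends of the genes differed among the classes. Of the 62 members, 21 had a stem-loop with under 100 bases after it in every annotated transcript, 21 had a transcript running at least 100 bases past it, 15 had neither a stem-loop nor a long end in their model, 2 had a long end without a stem-loop, 2 were not annotated and 1 was not protein coding. Among the 27 replication-linked members, 10 ended shortly after the stem-loop, 6 ran at least 100 bases past it, 9 had a short model without one and 2 were not annotated. All 4 members that were constant or lower in CPM in cycling cells had a long annotated end. It ran 840 bases past the stem-loop in Hist1h1c, 1643 in Hist3h2a and 169 in Hist3h2ba. Hist2h2be had 2195 bases after the stop codon and no stem-loop. Hist1h2bc, the leading gene of resting fibroblasts, likewise had 745 bases after its stop codon and no stem-loop. A long end was no mark of these genes alone, since Hist1h4d ran 770 bases past its stem-loop and Hist1h2ae 151. Hist1h3c had 74 bases and Hist2h2ac 57.

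Histone genes often face each other across a shared stretch of DNA, and 9 pairs of members started within 500 bases of each other in opposite directions. Both partners were replication-linked in 3 pairs, both lay between the sizes in 1, and both could not be placed in 1. In 3 pairs 1 partner was replication-linked and the other lay between. The remaining pair joined a replication-linked H2A gene, Hist2h2ac (3.84 at 4 weeks, 3.25 at 2 weeks), to the constant H2B gene Hist2h2be (-0.88 and -0.76), which start 239 bases apart. The DNA between them is shown as read on the strand of Hist2h2ac, chr3:96220881-96221118 (GRCm38.p6, RefSeq), with the motif TATAAA, the motif CCAAT and the octamer ATTTGCAT on either strand in capitals. Beside it are the stretch between Hist1h2ae and Hist1h2bg, both replication-linked, at chr13:23571221-23571395 on the strand of Hist1h2ae, and the 250 bases before Hist3h2a, lower in CPM in cycling cells though higher per cell, at chr11:58954435-58954684 on its own plus strand.
Hist2h2ac and Hist2h2be: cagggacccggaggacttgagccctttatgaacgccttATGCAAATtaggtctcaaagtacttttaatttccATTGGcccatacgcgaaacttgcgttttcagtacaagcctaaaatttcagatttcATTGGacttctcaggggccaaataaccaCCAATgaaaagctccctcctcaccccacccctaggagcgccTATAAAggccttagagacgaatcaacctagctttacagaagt
Hist1h2ae and Hist1h2bg: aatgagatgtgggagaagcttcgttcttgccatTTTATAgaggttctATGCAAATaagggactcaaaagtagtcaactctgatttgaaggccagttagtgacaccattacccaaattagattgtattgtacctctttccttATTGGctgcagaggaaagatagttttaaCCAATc
Hist3h2a: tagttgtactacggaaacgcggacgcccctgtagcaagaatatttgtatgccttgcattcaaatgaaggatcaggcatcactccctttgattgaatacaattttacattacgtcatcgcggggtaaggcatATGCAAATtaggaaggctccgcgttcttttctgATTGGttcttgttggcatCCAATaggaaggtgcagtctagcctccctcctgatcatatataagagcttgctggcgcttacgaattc
The first stretch held 1 TATAAA, 3 CCAAT and 1 ATTTGCAT, the second 1, 2 and 1, and the third 0, 2 and 1. Thus CCAAT and ATTTGCAT stood before genes of both kinds. A promoter of RefSeq within 1000 bases of the annotated start was found for 50 members, and on both strands of its 250 bases before and 50 after the start 64% held TATAAA, against 14.1% of all 27025 promoters. CCAAT occurred in 82% of member promoters against 37.8% of all, in every H1, H2A, H2B and H3 promoter but in 3 of 12 of H4. ATTTGCAT, the octamer known from H2B promoters, occurred in 18% against 1.74% of all, in 6 of 15 H2A and 3 of 9 H2B promoters and in none of the other families.

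Several genes that handle histones also rose in cycling thymocytes. Of 14 genes for histone chaperones and deposition, 13 were higher in cycling thymocytes by the edgeR test and 1 was lower, where 31.2% of all tested genes were higher and 27.8% lower; this share also stands behind the counts of the next lists. Chaf1a, a subunit of the assembly factor that loads H3 and H4 behind the replication fork, had 69.7 and 87.3 CPM in cycling thymocytes at 4 and 2 weeks, against 3.33 and 0.695 CPM in resting ones (edgeR log2 fold change 6.12, adjusted p = 3.48e-60). Hells, a chromatin remodeller, had 169 and 148 CPM in cycling thymocytes, against 6.65 and 3.47 CPM in resting ones (edgeR 5.46, adjusted p = 1.15e-96). Atrx, which with Daxx loads a replacement form of H3, was the lower one, at 406 and 464 CPM in cycling thymocytes against 660 and 711 CPM in resting ones (edgeR -0.31, adjusted p = 8.82e-05), though per cell it was higher (1.43). Its call was lost with DESeq2 (-0.25, adjusted p = 0.0807) and in edgeR with no filter (-0.14, adjusted p = 0.169). Of 15 genes that process histone mRNA, 14 were tested, 9 were higher, 0 lower and 5 not called. Slbp, which binds the stem-loop, had 331 and 306 CPM in cycling thymocytes, against 71.5 and 40.3 CPM in resting ones (edgeR 2.99, adjusted p = 1.68e-108). Cstf2, a cleavage factor, had 52.6 and 61.4 CPM in cycling thymocytes, against 28.3 and 26.4 CPM in resting ones (edgeR 1.47, adjusted p = 1.80e-12). Of 10 replacement histone genes outside the clusters, 9 were tested, 6 were higher, 0 lower and 3 not called. H2afx, which is phosphorylated at DNA breaks, had 573 and 497 CPM in cycling thymocytes, against 53.2 and 43.1 CPM in resting ones (edgeR 3.84, adjusted p = 5.58e-208). H2afz had 3826 and 3511 CPM in cycling thymocytes, against 497 and 447 CPM in resting ones. H3f3b, which makes that replacement form of H3, was not called, with 2633 and 3032 CPM in cycling thymocytes against 3215 and 4208 CPM in resting ones (edgeR -0.04, adjusted p = 0.448). H3f3a, the other H3 gene of this list, was higher, at 2432 and 2272 CPM against 2077 and 1920 CPM (edgeR 0.58, adjusted p = 4.04e-34).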

How the data were processed

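Single-cell 3' RNA of 2 libraries was analysed, 1 per time. The authors deposited a raw count of UMIs for every gene in every barcode. Per the file headers the tool was Cell Ranger 4.0.0, and the build was mm10 per the submitters' processing notes, and the annotation release is not given in the sources used here. The libraries held 83753250 UMIs at 4 weeks and 78773018 at 2 weeks. Barcodes were left out with under 300 genes, under 500 UMIs or over 10% of UMIs from mitochondrial genes, and doublets scored on simulated pairs (0.8% per 1000 barcodes, 549 and 255 barcodes at 4 and 2 weeks) were removed. Cells were clustered with scanpy 1.11.5 (2000 variable genes without clustered histone genes, 30 components, 15 neighbours, Leiden resolution 1) and named from marker lists. A marker counted at 2 times the median of other clusters and in 10% of cells, and a name needed 50% of its list, 3 markers and a lead of 20 points; a thymocyte exception let cluster 21 keep its name although its T cell score was higher. UMIs were summed per library, class and state. Ratios of CPM, over genes with at least 20 UMIs, carry 95% exact binomial intervals, levels exact Poisson and shares exact binomial intervals; all cover counting error only, since UMIs of 1 library are not replicates. Genes with 0 counts were set at 3. Cycling and resting thymocytes were compared with edgeR 4.0.16 (quasi-likelihood, library as block, adjusted p under 0.05), tested on simulated data; a state needed 20 cells in each library. The library is the pairing of the 2 states, known from the labels. DESeq2 1.42.0 and the other alternatives are given at the end. Values are given for the 6 members with the highest CPM in S-leaning thymocytes, the 6 highest in resting cells, members within 1 log2 unit, the 3 highest and 3 lowest between times among those with at least 50 UMIs, and 2 genes per direction of each other list; further members were named after their values were seen. The members and lists were chosen with earlier results of these data known.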

Additional observations from a re-analysis of the deposited data

Results flagged for a closer look

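Hist1h2bc had ratios of opposite sign in thymocytes and in the other classes pooled. Its log2 ratio of CPM, cycling over resting, was 1.14 at 4 weeks and 0.53 at 2 weeks in thymocyte-like cells, and -1.13 at 4 weeks and -0.87 at 2 weeks over all other classes; the difference was not tested. The pooled value mixes classes, and within them the ratio was -0.54 in fibroblasts at 4 weeks, -0.48 in macrophages at 2 weeks and 0.93 (-0.49 to 2.12) in T cells at 4 weeks.

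Member RNA also appeared in barcodes that no comparison used. Barcodes removed as doublets held 1443 CPM of the 62 members at 4 weeks and 2975 CPM at 2 weeks, against 1069 and 2339 CPM in kept cells of the 4-week and 2-week libraries. Thymocyte-like cells with under 2700 UMIs, which were not given a state, held 1644 CPM at 4 weeks and 1769 CPM at 2 weeks, close to the 1402 and 1740 CPM of resting thymocytes.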

How the results depend on the processing

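Of the values that answer a comparison, 106 kept their direction and size class under an alternative, 29 moved and 3 reversed; for single genes the counts were 427, 24 and 4, with 4 that passed the threshold only under the alternative and 2 that no longer passed. The 50 members higher in cycling thymocytes were 41 by DESeq2, 52 with no filter, 55 with UMIs per cell, 51 with thinning to 1500 UMIs and 50 in the other fits, including the fit without the library as replicate block, which called 5069 of all genes against 5734 with it. All genes called were 2884 by DESeq2 and 8993 per cell. Of calls, 52.9% were higher, against 65.0% by DESeq2, 64.2% with no filter and 99.1% per cell. Per cell, 48 members reached a log2 ratio of 2 and 0 lay below -1. On that scale the median of all genes by edgeR was already 1.73, and the share of all genes at a ratio of 2 was not counted. Per cell edgeR called 0 members lower, and 77 of 9731 genes. With doublets kept 1 lay below -1, and with thinning to 1500 UMIs 5 were constant and 33 replication-linked, 26 of them shared with the 27. Per cell, Hist3h2a turned to 0.86 in edgeR and to 0.58 at 4 weeks and 1.00 at 2 weeks as a ratio, and Atrx to 1.43. The member sum, cycling over resting thymocytes, was 4.82 at 4 weeks and 4.51 at 2 weeks per cell, 2.91 at 4 weeks with doublets kept, and 2.64 and 2.30 without cluster 21, an alternative chosen after seeing the data, which left 25 replication-linked members. In B cell-like cells it was 3.22 with doublets kept, a setting in which all cells were clustered and named anew. With a cycling minimum of 6 UMIs it was 0.31. Over all other classes at 4 weeks it was 0.94 per cell, 2.75 with doublets kept, 0.47 and 1.97 with a minimum of 3 and 6, and 1.72 with thinning to 1500; at 2 weeks it was 1.32, 2.82, 0.90, 2.17 and 2.00. Between the times, the sum in S-leaning thymocytes was -0.13 per cell, -0.029 with doublets kept, -1.25e-05 with a minimum of 3 and 0.14 with thinning to 1500. In resting thymocytes it was -0.49 per cell and -0.54 with doublets kept, and per cell -1.43 in fibroblasts and -0.82 in macrophages. The cause of these shifts was not tested. With 1 library per time, leaving out a library leaves no comparison between times, and depth limits the members with few resting UMIs.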
